A study of Mus musculus with 4 samples.

Results

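Non-venous blood endothelial cells of the neonatal mouse ear were compared by the amount of ICAM1 protein on their surface, as counted with a barcoded antibody. A cell was taken when it held 500 or more detected genes, at most 10% mitochondrial UMIs (unique molecular identifiers, each standing for 1 captured transcript) and at least 1 UMI of the endothelial cadherin Cdh5. It was left out when it held any UMI of the lymphatic genes Prox1, Mmrn1 or Reln, any UMI of the venous genes Ackr1 or Selp, or 3 or more UMIs of the division genes Mki67 and Top2a. Of 4622 barcodes in both neonatal mRNA libraries, 1738 cells met this rule and had a tag profile. Those with 200 or more ICAM1 tag counts formed the high group (276 cells) and those with 60 or fewer the low group (625 cells), so that 901 cells were compared, and the 837 cells between made up a middle group. The groups were chosen by these tag counts, which are given as a description only. The mRNA of the same cells was not used to set the groups and was tested.

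The study profiled endothelial cells of C57BL/6 mouse ears by single-cell mRNA sequencing together with antibody-derived tags. The 2 neonatal (P8, postnatal day 8) biological replicates are used here, each with an mRNA library and a tag library of the same cells, and adult and wounded ears are not analysed here. All groups share the same preparation: CD31+ cells were enriched magnetically, stained, and sorted as live, CD31+ and Cdh5CreERT2-Rtom+, that is, carrying a red reporter switched on by an inducible Cre recombinase under the endothelial Cdh5 promoter. The sources used here do not say whether animals were pooled in a replicate. High and low cells of a library therefore come from the same suspension, and the p-values rest on 2 libraries.

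ICAM1 is an immunoglobulin-family receptor on the endothelial surface that binds the integrins LFA-1 and Mac-1 of leukocytes, which holds these cells firmly to the vessel wall before they cross it. It is present at low levels on resting endothelium and is induced by inflammatory cytokines through NF-kB and STAT factors. In inflamed skin, leukocytes leave the blood mainly through venules, and arteries and capillaries are not the usual sites of their exit.

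Each antibody carried a short DNA barcode, and counting that barcode gave the protein value. The sequences below are those of the tag that set the groups, of the related adhesion receptor, and of both control antibodies of rat origin that have no target in mouse cells, written in lower case with no part marked.
ICAM1 tag: ataaccgacacagtg
VCAM1 tag: cgttcctacctacct
IgG2b isotype tag: gattcttgacgacct
IgG2a isotype tag: aagtcaggttcgttt

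The median ICAM1 tag count per cell was 290 and 296 in the high cells of libraries 1 and 2, 101.5 and 108 in the middle cells, and 31 and 36 in the low cells. The distribution had no gap at either threshold: 13 and 21 cells of libraries 1 and 2 lay within 10 counts below the upper threshold, and 14 and 8 within 10 counts from it upward. At the lower threshold, 51 and 53 cells held 51 to 60 counts and 43 and 66 held 61 to 70. Among the other sorted cells, venous cells (those with an Ackr1 or Selp UMI) had a median of 257 and 295 counts and 63.8% and 69.8% of them reached the high threshold, against 13.3% and 17.9% of the non-venous cells. Lymphatic cells had medians of 27 and 38 counts.

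**Figure D1:**
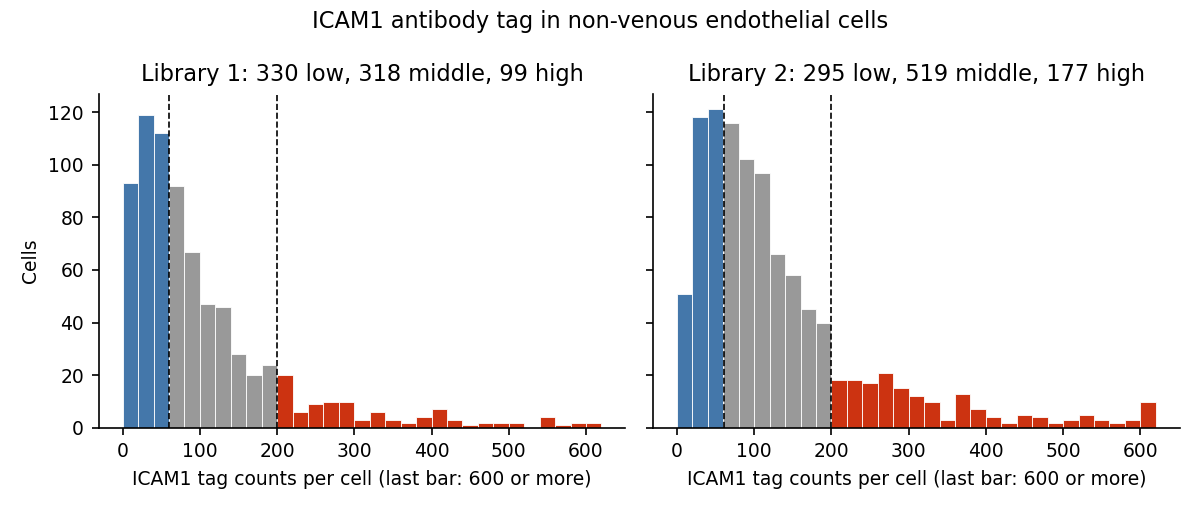
Number of cells (vertical axis) by ICAM1 tag counts per cell (horizontal axis, bars of 20 counts, the last bar holding all cells with 600 or more) in each library, coloured by tag group with dashed lines at the thresholds. Library 1 had 330 low, 318 middle and 99 high cells and library 2 had 295, 519 and 177, along 1 continuous range.

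Other tags moved with ICAM1. The mean VCAM1 tag was 4.62 and 2.19 times as high in the high cells as in the low cells of libraries 1 and 2, the VEGFR2 tag 2.11 and 2.83 times and the CD45 tag 2.11 and 5.18 times, while the CXCR4 tag was 0.628 and 0.913 times as high. For CD45 in library 2, 1 high cell held 1203 of the 1817 counts of that group, and the medians were 2 in high and 1 in low cells of both libraries. The IgG2a isotype tag averaged 1.77 counts in high and 0.970 in low cells of library 1, and 2.55 and 1.74 in library 2. These are ratios of 1.82 and 1.47, and those of the IgG2b isotype tag were 1.69 and 1.90. The ICAM1 ratios, 10.6 and 9.89, are fixed by the grouping.

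The groups also differed in depth and in vessel type. Median UMIs per cell were 10918 and 11104 in high cells, 8745 and 8311 in middle cells and 6181.5 and 6110 in low cells. Cells with 3 or more UMIs of 6 arterial genes (Gja5, Gja4, Cxcl12, Unc5b, Sema3g and Efnb2), here called arterial cells, made up 37.4% and 36.7% of the high cells against 69.7% and 61.02% of the low cells. After each cell was thinned to 3000 UMIs and at least 1 UMI of these genes was asked for, the shares were 40.4% and 40.9% against 80.3% and 75.4%, with 0 and 1 high and 21 and 19 low cells left out as too shallow. Fewer arterial cells stood in the high group in both libraries, at either setting. Values within the arterial and the other cells, or among cells of matched depth, are given beside only some of the results that follow. Of the 95 genes other than Icam1 that the naming rule below chose, 42 no longer passed with cells of 6000 to 12000 UMIs only. Without arterial cells 38 no longer passed and 12 changed sign.

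The test on summed UMIs per library and group (edgeR quasi-likelihood, with the library as a block and Benjamini-Hochberg adjustment) found 720 of 10282 genes different between high and low cells at an adjusted p under 0.05, which is 7% of those tested, 314 of them higher (3.05%) and 406 lower (3.95%) in the high cells. Leaving out the library block left 198 genes. The median log2 change over all genes tested was 0.003. Ranking the same cells by the summed isotype tags, with groups of the same sizes, gave 186 of 10405 genes (1.79%), 95 higher (0.913%) and 91 lower (0.875%). The median isotype sums were only 1 and 2 counts per cell, and ties were ordered by barcode. Membership of the isotype groups was therefore partly arbitrary, and the comparison is a weak background. In 40.9% of all genes tested the 2 high and the 2 low values did not overlap (high above low in 20.4% and low above high in 20.5%), so that non-overlap of so few values is common and is named below only as a description.

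Icam1 mRNA itself followed the protein. In library 1, Icam1 stood at 503 CPM (UMI counts per 1000000, with totals scaled by the TMM method) in high, 245 in middle and 125 in low cells. In library 2 it stood at 1159.5, 941 and 552 CPM. Within each library the order was the same, but the libraries differed in level, so that the low cells of library 2 lay above the high cells of library 1. The mean was 831 ± 464 CPM in high and 338 ± 302 CPM in low cells (SD, n = 2 libraries each). The log2 change was 1.50 ± 0.16 (SE; adjusted p = 0.000192, edgeR), higher in 2 of 2 libraries, with 2.01 in library 1 and 1.07 in library 2. Without the library block it was 1.31, with an adjusted p of 0.514. Between the isotype groups Icam1 changed by 0.05 (adjusted p = 0.892).

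Across single cells the relation between protein and message was loose. Spearman's rho between the ICAM1 tag and Icam1 UMIs per 10000 was 0.387 over 747 cells of library 1 and 0.253 over 991 cells of library 2, points that share a library and whose tag counts also rose with the cell's UMIs (rho 0.425 and 0.399). Of cells thinned to 3000 UMIs, 57.6% and 65.9% of high cells held an Icam1 UMI (95% exact binomial intervals 47.2 to 67.5% and 58.4 to 72.9%, counting error only), against 21.7% and 42.4% of low cells (17.2 to 26.7% and 36.5 to 48.5%). Unthinned, these shares were 79.8% and 87.0% of high and 33.9% and 54.2% of low cells. Among the few sorted cells with neither Cdh5 nor Pecam1 UMIs, 33.3% of 12 and 41.2% of 17 thinned cells held one, at median depths of 8182.5 and 7743.5 UMIs, so that the low cells' shares are not set apart from that of cells of other types.

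Icam1 lies on chromosome 9 (GRCm38, 21015985 to 21028817, plus strand). Its promoter and those of Sele, which encodes E-selectin, of B2m, the shared light chain of MHC class I, and of H2-K1, a class I heavy chain, are printed because these genes rose together with the ICAM1 protein. The 250 bases before the transcript start are from RefSeq (GRCm38.p6), with capitals on the letters that match a motif on either strand: TTCNNNGAA (STAT), GGGNNTTNC (NF-kB) or GAAANNGAA (interferon regulatory factors), none of which overlapped another here. H2-K1 has 2 starts in the table, of which 1 is shown.
Icam1 promoter, chr9:21015690-21015939, plus strand: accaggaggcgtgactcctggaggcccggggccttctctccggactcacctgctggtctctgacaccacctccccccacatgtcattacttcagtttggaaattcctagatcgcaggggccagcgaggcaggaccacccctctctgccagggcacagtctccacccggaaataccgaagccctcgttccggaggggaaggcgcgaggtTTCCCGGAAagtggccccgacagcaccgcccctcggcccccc
Sele promoter, chr1:164047984-164048233, plus strand: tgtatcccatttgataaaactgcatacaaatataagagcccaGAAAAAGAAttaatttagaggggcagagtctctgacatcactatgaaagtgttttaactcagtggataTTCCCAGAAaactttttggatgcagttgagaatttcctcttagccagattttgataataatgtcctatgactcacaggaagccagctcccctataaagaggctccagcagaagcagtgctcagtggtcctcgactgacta
B2m promoter, chr2:122147437-122147686, plus strand: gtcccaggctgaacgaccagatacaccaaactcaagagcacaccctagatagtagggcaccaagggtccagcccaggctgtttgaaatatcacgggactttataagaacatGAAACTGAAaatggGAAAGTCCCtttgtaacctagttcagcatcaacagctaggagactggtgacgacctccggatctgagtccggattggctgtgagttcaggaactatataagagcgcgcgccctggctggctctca
H2-K1 promoter, chr17:34000348-34000597, minus strand: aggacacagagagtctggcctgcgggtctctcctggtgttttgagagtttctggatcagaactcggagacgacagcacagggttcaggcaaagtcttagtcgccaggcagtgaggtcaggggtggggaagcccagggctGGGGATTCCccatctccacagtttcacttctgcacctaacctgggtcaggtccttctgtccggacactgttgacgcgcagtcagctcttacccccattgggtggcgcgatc

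In these windows the Icam1 and Sele promoters matched the STAT letters, Sele also matched the interferon regulatory factor letters, B2m matched the NF-kB and the interferon regulatory factor letters within a short distance, and H2-K1 matched the NF-kB letters. For the counts by gene, a gene counted when any of its starts matched. The NF-kB letters were found for 6 of the 12 MHC class I genes that rose (B2m, H2-K1, H2-D1, H2-Q4, H2-Q6 and H2-Q7). They were found for 16.7% of the 8079 tested genes with a promoter and in 13.0% of all 32851 promoters. The interferon regulatory factor letters were found for 3 of the 12 (B2m, H2-T22 and H2-T23), for 7.30% of the tested genes and in 7.13% of all promoters. The STAT letters were found for 1 of the 12 (Psmb8), for 6.96% of the tested genes and in 7.02% of all promoters. Several class I genes are close copies of each other, so their promoters are not independent. The motifs were chosen after the values were seen, and a match describes letters only. Other forms of these sites were not searched, so a window without a match may still hold one.

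Of the leukocyte adhesion receptors, 5 of 15 tested genes rose in the high cells and 2 fell, with a median log2 change of 0.05 against 0.003 over all genes. Sele, a selectin that catches rolling leukocytes and that textbooks place on inflamed venules, stood at 91.0 and 174 CPM in the high cells of libraries 1 and 2, at 35.2 and 50.8 in the middle and at 1.70 and 22.8 in the low cells. All high values lay above all low values, and the log2 change was 3.50 ± 0.33 (adjusted p = 5.78e-05). The low value of library 1 rests on 4 UMIs. A Sele UMI was found in 15.2% and 27.8% of thinned high cells and in 0.324% and 3.99% of thinned low cells, and in 0 of 12 and 0 of 17 cells without Cdh5 or Pecam1 UMIs, which allows shares of up to 26.5% and 19.5% (exact 95% limits). Unthinned, Sele UMIs were in 24.2% and 37.9% of high and 1.21% and 7.12% of low cells.

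Vcam1, the receptor for the leukocyte integrin VLA-4, was at 34.3 and 19.98 CPM in high, 11.2 and 9.99 in middle and 9.75 and 6.32 in low cells. High values again lay above low ones (log2 change 1.71 ± 0.29, adjusted p = 0.00352), from 40 and 42 UMIs in high and 23 and 13 in low cells, and 1 cell gave 33.3% of the high cells' UMIs in library 2. Madcam1, the mucosal addressin, rose from a low level (8.59 and 15.7 CPM in high against 2.97 and 3.89 in low cells). Emcn, the sialomucin endomucin that is typical of veins and capillaries, rose from 458 and 531 to 823 and 844 CPM (log2 change 0.76 ± 0.07). Icam2, a constitutive relative of ICAM1, fell by 0.50 and Podxl, a sialomucin of the luminal surface, by 0.88 on the log2 scale.

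Of the other tagged proteins, Ptprc, which encodes CD45, was too low to be tested. Kdr, which encodes VEGFR2, stood at 449 and 634 CPM in high and 420 and 490 in low cells (log2 change 0.24, adjusted p = 0.122). Cxcr4, the receptor for CXCL12, stood at 8.59 and 21.4 CPM in high and 36.4 and 30.6 in low cells (log2 change -1.01, adjusted p = 0.0574). Neither passed the test.

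**Figure D2:**
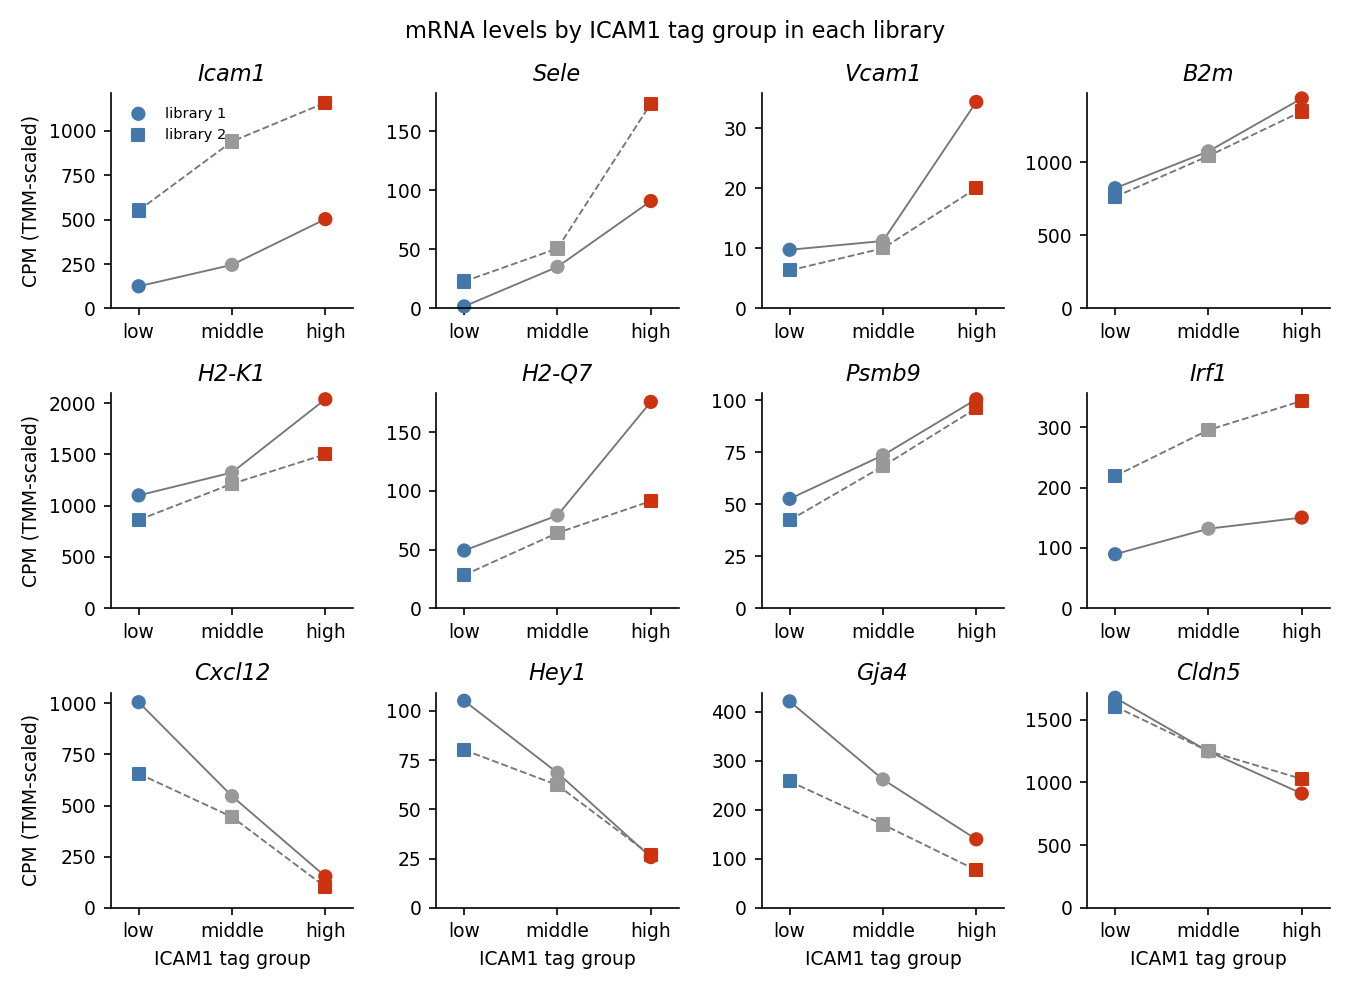
CPM (vertical axes, TMM-scaled, starting at 0) of 12 genes in low, middle and high ICAM1 tag groups (horizontal axes, colours), with circles and solid lines for library 1 and squares and dashed lines for library 2. The first 8 genes rose from low to high in each library and the last 4 (Cxcl12, Hey1, Gja4 and Cldn5) fell, and Icam1 and Irf1 differed in level between the libraries.

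Genes of MHC class I presentation were higher in the high cells as a group: 12 of 15 tested genes rose and 0 fell, with a median log2 change of 0.61, and the 3 others (Tap2, Erap1 and Tapbp) did not pass. MHC class I molecules carry peptides cut by the proteasome to the cell surface, where CD8 T cells read them. B2m stood at 1437 and 1348 CPM in high, 1075 and 1043 in middle and 823 and 764 in low cells (log2 change 0.81 ± 0.06, adjusted p = 2.52e-05). H2-K1 stood at 2037 and 1501 CPM in high, 1323 and 1213 in middle and 1099 and 860.4 in low cells (0.85 ± 0.08, adjusted p = 5.24e-05). For both genes the groups did not overlap and the middle cells lay between the others in each library. H2-D1, the other classical heavy chain of this strain, rose by 0.42.

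Among the non-classical heavy chains, H2-Q7 was at 176 and 91.3 CPM in high against 49.2 and 28.2 in low cells (log2 change 1.75 ± 0.16), and H2-Q6 at 96.2 and 59.9 against 20.8 and 21.9 (1.86 ± 0.19). H2-Q4, H2-Q6 and H2-Q7 are related genes with similar sequences, so how their reads were divided is uncertain. H2-T23, which presents leader peptides of other class I chains to NK cells, rose by 1.05 and H2-T22 by 0.72. Of the immunoproteasome, which cuts peptides for these molecules, Psmb9 rose from 52.6 and 42.3 to 100 and 96.1 CPM (1.06 ± 0.12), Psmb8 by 0.61 and Psmb10 by 0.52, and the peptide transporter Tap1 rose by 0.57.

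The count of class I genes that rose was 8 with DESeq2, 5 without the library block and 7 with cells thinned to 3000 UMIs. It was 9 with cells of 6000 to 12000 UMIs only, 6 without arterial cells and 8 without cells with a Sele UMI, and 0 fell in any of these. Over all genes tested, 127 of 10282 rose with DESeq2, 76 of 10282 without the block and 123 of 8367 with thinned cells. The counts were 112 of 8977 with cells of 6000 to 12000 UMIs, 95 of 8433 without arterial cells and 192 of 10217 without cells with a Sele UMI. Between the isotype groups, which are drawn from the same cells, 0 of 15 rose and 4 fell: H2-Q7 by 0.72, H2-K1 by 0.28, B2m by 0.21 and H2-D1 by 0.21.

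**Figure D3:**
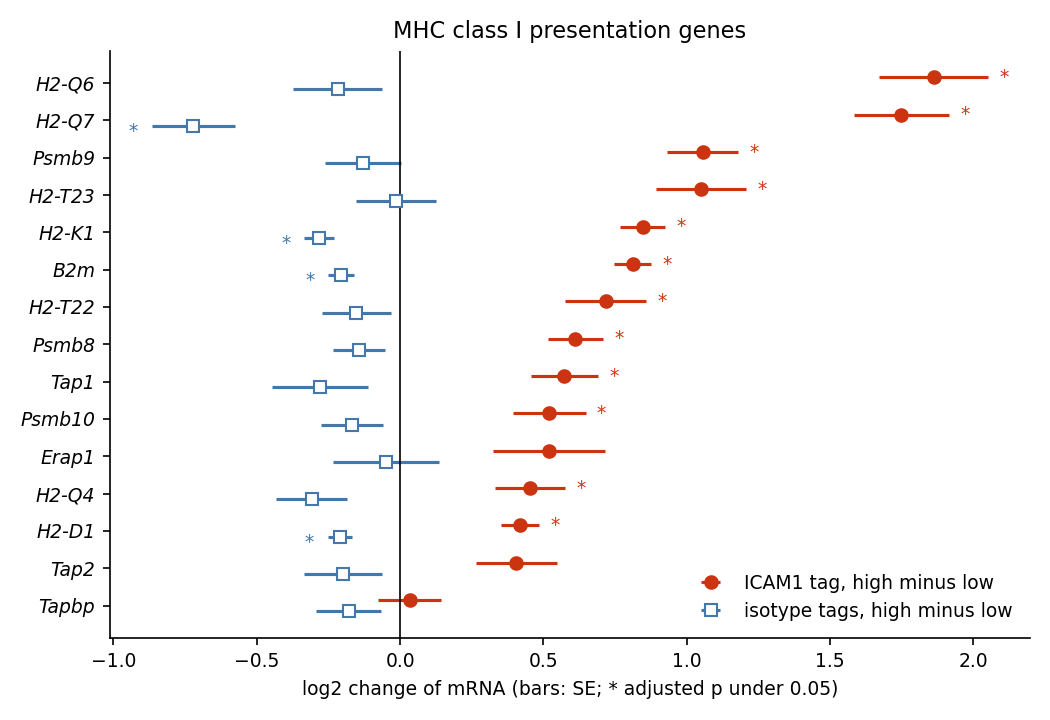
Log2 change (horizontal axis, with SE) of 15 MHC class I presentation genes between the ICAM1 tag groups (filled circles) and between isotype tag groups of the same sizes (open squares), with stars for an adjusted p under 0.05. All 15 ICAM1 changes lay above 0, with 12 stars, and all 15 isotype changes lay below 0, with 4 stars.

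Other lists of inflammatory genes had fewer members that passed. Of 25 interferon response genes, 5 rose (Irf1, Irf7, Ifi47, Gbp2 and Gbp4) and 0 fell, with a median of 0.25, and 1 rose with DESeq2. Irf1, a transcription factor induced by interferon and NF-kB, stood at 150 and 344 CPM in high against 89.4 and 219.1 in low cells, a log2 change of 0.69 ± 0.09 with levels that overlap between libraries. Of 11 JAK-STAT3 genes, the kinases Jak1 (0.39) and Jak2 (0.89) and the transcription factor Cebpd (0.67, from 0.91 and 0.46 in libraries 1 and 2) rose and 0 fell. Of 17 NF-kB feedback genes, which are induced by NF-kB and restrain it, Tnip1 alone passed (0.58 ± 0.16, from 0.81 and 0.40 in libraries 1 and 2, adjusted p = 0.0472), at a list median of 0.30.

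No subunit or kinase of NF-kB and no inflammatory receptor or adaptor passed: 0 of 11 and 0 of 23 genes with edgeR, where 2 and 4 had an unadjusted p under 0.05, and 0 and 0 with DESeq2. Over all genes tested 7% passed with edgeR and 269 of 10282 with DESeq2, so 0 in lists this short is near that share. Of 17 chemokines and cytokines, 3 rose and 1 fell. Cxcl16, a transmembrane chemokine that binds CXCR6 on T cells, went from 8.90 and 4.37 to 27.5 and 10.9 CPM (1.51 ± 0.31), and Tnfsf10, the death ligand TRAIL, rose by 0.52. Ccl5, a T cell attractant, passed as well (3.19 ± 0.70), but 1 cell held 98.5% of its 327 UMIs in the high cells of library 2 and 1 cell held 67.6% of 714 in library 1. Its group values, 613 and 156 CPM against 78.8 and 1.46, therefore describe very few cells. When the groups were cut by the ratio of ICAM1 to the other tags, Ccl5 stood at -1.17 and Tnip1 at -0.043, and neither passed. Most counts of those other tags were CXCR4, with means of 31.8 and 29.6 per cell in libraries 1 and 2. The next highest, CD45, had means of 7.30 and 4.03, so this cut also sorted cells by CXCR4 protein.

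The immediate-early genes, transcription factors that rise within minutes of a stimulus or of tissue dissociation, were not higher: 0 of 29 rose and 8 fell (Fosb, Ier2, Nr4a1, Nr4a2, Nr4a3, Klf6, Gadd45g and Ppp1r15a), with a median of -0.11. Their summed level was 11418 and 13786 CPM of total UMIs in high and 11805 and 16210 in low cells. Without arterial cells 0 of 27 passed, 4 having an unadjusted p under 0.05. Over all genes 232 of 8433 passed in that setting, so 0 of 27 is near that share. Of 14 heat shock genes, Hspb1 (0.55, from 0.77 in library 1 and 0.36 in library 2) and Hspe1 (0.38) rose.

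Most arterial genes and fewer than 1 in 2 Notch genes fell in the high cells. Of the 6 arterial genes, 5 fell and Gja5 did not pass (log2 change -0.08, adjusted p = 0.921), with a median of -1.46. Cxcl12, the chemokine that arterial endothelium releases for CXCR4-bearing cells, stood at 154 and 103 CPM in high, 546 and 444.3 in middle and 1005 and 656 in low cells. The groups did not overlap (log2 change -2.70 ± 0.10, adjusted p = 5.56e-08). Gja4, the gap junction protein connexin 37, fell from 422 and 258 to 140 and 77.0 CPM, a log2 change of -1.67 ± 0.09. These changes stand beside the smaller share of arterial cells in the high group given above.

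Notch signalling sets and keeps arterial identity, with the ligands on one cell acting on receptors of the next. Of 18 tested Notch genes 8 fell and 0 rose, with a median of -0.34: the receptors Notch1, Notch3 and Notch4, the ligands Dll4, Jag1 and Jag2, and the targets Hey1 and Heyl. Hey1, a repressor that Notch induces, was at 25.8 and 26.6 CPM in high, 68.5 and 62.3 in middle and 105 and 80.2 in low cells (log2 change -1.79 ± 0.15, adjusted p = 3.61e-05). Jag2 fell from 154 and 140 to 69.5 and 84.7 CPM. The number that fell was 3 with DESeq2, 3 without the library block and 3 with cells of 6000 to 12000 UMIs. It was 2 without arterial cells and 1 with the stricter cell filter of 1000 genes and 5% mitochondrial UMIs. Over all genes tested, 142 of 10282, 122 of 10282, 121 of 8977, 137 of 8433 and 90 of 8434 fell in these settings, in the same order. Jag1 stood at 0.86 without arterial cells and did not pass.

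Several markers of mural cells were lower as well. Of 8 pericyte and smooth muscle markers 6 fell and 0 rose (median -1.51), and their summed level was 485 and 183 CPM in high against 899 and 1036 in low cells, 351 and 296 in middle cells. Rgs5 stood at 187 and 81.3 CPM in high and 428 and 555 in low cells. Notch3 is on both this list and the Notch list. With cells removed that held 2 or more UMIs of other cell types or a CD45 tag of 20 or more, none of the 8 was left in the test. These 8 were among the genes by which cells were removed, so their loss follows from the removal. In this setting 11 MHC class I genes rose, and 6 Notch genes and 5 arterial genes fell. Over all 9450 genes tested there, 341 rose and 390 fell. In the full groups, before this removal, the summed immune markers were 13.0 and 49.1 CPM in high and 20.2 and 7.58 in low cells. Ptprc, Tyrobp and Cd3e were at 0 in the low cells and Cpa3 and Cd3e at 0 in the high cells. Summed erythroid markers were 86.4 and 2765 CPM in high and 191 and 2085 in low cells.

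Genes of veins were not taken out by the rule other than Ackr1 and Selp. Nr2f2, Vwf, Ephb4 and Nrp2 summed to 478 and 339 CPM in high and 274 and 285 in low cells, and 0 of the 4 passed with edgeR or DESeq2, 3 and 2 having an unadjusted p under 0.05. Nr2f2, the transcription factor of venous identity, stood at 135 and 70.9 CPM in high against 47.9 and 63.6 in low cells (log2 change 0.81, adjusted p = 0.0619). The part of unrecognised venous cells in the rises above was not tested.

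Among genes of flow, junctions and clotting, most that passed were lower in the high cells, as were 406 of the 720 that passed over all genes. Thbd is on both the flow and the haemostasis list. Klf2 and Klf4, transcription factors that laminar flow induces and that hold endothelium quiescent, stood at 1002 and 981 (Klf2) and at 334 and 370 CPM (Klf4) in high cells, and at 1490.1 and 1444 and at 435 and 493 in low cells. Their log2 changes were -0.57 ± 0.07 and -0.40 ± 0.08, but without arterial cells they were 0.10 and 0.18 and did not pass. In all, 2 of 15 flow genes rose, among them the stretch channel Piezo2 (0.90 ± 0.14), and 5 fell.

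Of 17 junction genes 5 fell and 0 rose, Cldn5, the main claudin of endothelial tight junctions, from 1676 and 1607 to 912 and 1028 CPM (log2 change -0.76 ± 0.07). Ptprb, the phosphatase VE-PTP that stabilises junctions, fell by 0.88. Of 16 haemostasis genes the anticoagulant receptor Thbd (-0.49, from -0.67 and -0.35), the plasminogen activator Plat (-1.06, from -1.81 and -0.61 in libraries 1 and 2) and the ADP-degrading Entpd1 (-0.42) fell, and Pros1, encoding protein S, rose by 0.47. Without arterial cells Entpd1 stood at 0.63 and did not pass.

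Angiogenic and matrix genes moved in both directions. Of 19 genes of VEGF and angiopoietin signalling 6 fell and Angptl4 rose (0.61 ± 0.10). Angptl4 rose by 1.04 between the isotype groups (adjusted p = 7.93e-05), and in other than arterial cells it stood at 0.03 and did not pass. Pgf, placental growth factor, stood at 0.859 and 5.71 CPM in high against 36.4 and 67.5 in low cells, the former from 1 and 12 UMIs, and 1 cell held 51.2% of the low cells' UMIs in library 1. Esm1, a marker of tip cells, stood at 34.3 and 79.0 against 122 and 154 CPM (-1.26 ± 0.16), while another tip marker, Kcne3, passed in the other direction (1.46 ± 0.34, from 0.21 in library 1 and 2.26 in library 2, with 58.6% of its UMIs in the high cells of library 1 from 1 cell, and at -0.042 without arterial cells). Of 28 basement membrane and matrix genes 5 rose and 10 fell. Col18a1, which holds endostatin, went from 535 and 481 to 174 and 210 CPM (-1.39 ± 0.10). Eln, encoding elastin, rose from 649 and 259 to 1174 and 598 CPM (1.02 ± 0.09), with levels that overlap between libraries, changed by -1.35 between the isotype groups and stood at -0.022 at tag thresholds of 300 and 40.

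Of 18 TGF-beta and BMP genes 2 rose and 3 fell, Tgfb2 the most (-1.82 ± 0.15), together with the receptors Tgfbr2 (-0.51) and Acvrl1 (-0.61). In fatty acid handling 3 of 18 rose and 3 fell, with Tcf15, a transcription factor of fatty acid uptake, at 105 and 58.5 CPM in high and 234 and 166 in low cells (-1.33 ± 0.11) and the water channel Aqp1 at 698 and 882 against 412 and 446 (0.88 ± 0.08). Aqp1 also rose between the isotype groups (0.46), and in other than arterial cells it stood at 0.27 and did not pass. In glycolysis 0 of 14 passed with edgeR or DESeq2, 2 and 1 having an unadjusted p under 0.05. With 7% of all genes passing with edgeR, 0 of 14 is near that share. Of 16 vasomotor genes 3 rose and 3 fell. Aplnr, the apelin receptor found on veins and capillaries, stood at 633 and 366 CPM in high against 220 and 167 in low cells (1.34 ± 0.11, adjusted p = 2.52e-05). Edn1, the vasoconstrictor endothelin, fell by 1.39 (-0.44 in library 1 and -2.46 in library 2), and Ptgs1, a cyclooxygenase, rose by 1.48 on the log2 scale.

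Among the genes ranked by size of change, Odc1, the first enzyme of polyamine synthesis, rose from 156 and 216 to 470 and 731 CPM (1.69 ± 0.11, adjusted p = 1.22e-05). Lrat, an enzyme of retinol storage that is on the capillary marker list, rose from 71.2 and 53.0 to 140 and 162 CPM (1.30 ± 0.14). Of the 6 capillary markers 1 rose, 1 fell and 4 did not pass, with a median of 0.07. The one that fell was Car4 (-2.21), from 8 and 1 UMIs in high and 42 and 24 in low cells. At the other end, Nebl, a nebulin-family protein that binds actin, held 3 and 0 UMIs in high cells of libraries 1 and 2 and 227 and 153 in low cells, and Pi16 held 1 and 0 against 54 and 51. Counts this low give no usable fold. S100a4 fell from 145 and 93.3 to 25.8 and 7.13 CPM (-3.02 ± 0.27), and Stmn2 from 379 and 229 to 118 and 47.6 CPM (-1.95 ± 0.14).

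Several of the genes described above also passed between the isotype groups, which are drawn from the same cells. In the same direction as with ICAM1 these were Aplnr (0.36), Gja4 (-0.69), Podxl (-0.58), Col18a1 (-0.44), Jag2 (-0.43), Tgfb2 (-0.86), S100a4 (-1.28) and Stmn2 (-1.14). In the opposite direction they were Lrat (-0.97), Tcf15 (0.72) and Rgs5 (1.19).

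Levels were also taken in 6 finer steps of the tag. From cells with 0 to 30 ICAM1 tag counts to those with 400 or more, B2m went from 729 to 1621 CPM of total UMIs in library 1 and from 686 to 1456 in library 2. Sele went from 0.964 to 103 and from 7.18 to 186 CPM, and Hey1 from 117 to 8.81 and from 108 to 9.54 CPM. Icam1 went from 109 to 570 CPM in library 1 and from 438 to 1088 in library 2, where the bin just below, from 200 counts up, was the highest at 1147. The steps between were not all in 1 direction: in library 2 Hey1 stood at 108, 63.6, 97.1, 38.9, 32.7 and 9.54 CPM and Cxcl12 at 775, 572, 618, 321, 90.9 and 122 CPM from the lowest bin to the highest.

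**Figure D4:**
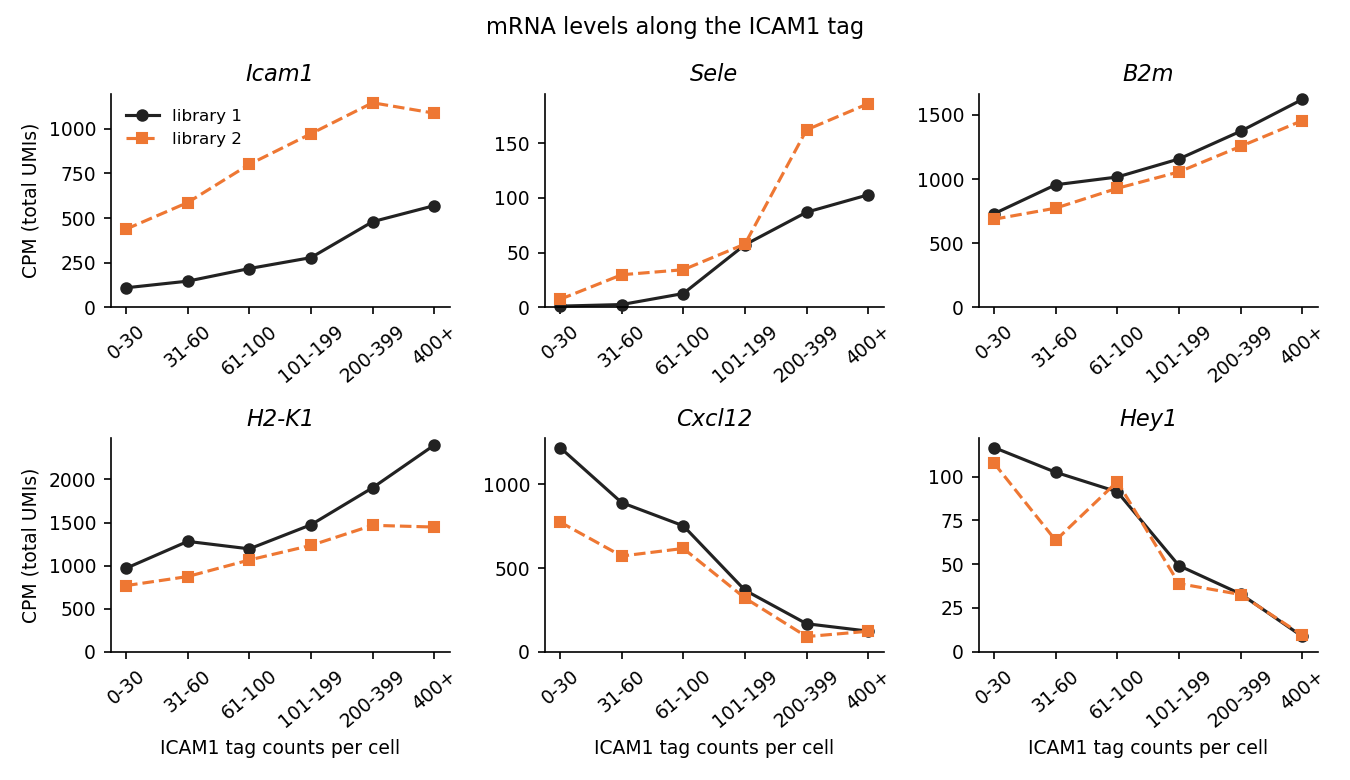
CPM of total UMIs (vertical axes, starting at 0) of 6 genes in 6 bins of ICAM1 tag counts per cell (horizontal axes), with circles for library 1 and squares for library 2. B2m, H2-K1, Icam1 and Sele were higher and Cxcl12 and Hey1 lower in the last bin than in the first in both libraries, with 26 and 43 cells in the last bins.

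Because arterial cells were fewer among the high cells, the comparison was repeated within arterial and within other cells, leaving out the 6 genes that define the class. The class was cut at 3 or more unthinned UMIs, and high cells were deeper than low cells. A high cell could thus count as arterial at a smaller share of arterial UMIs, so vessel type was not held equal within a class. In arterial cells 211 of 8541 genes passed (2.47%), 119 higher (1.39%) and 92 lower (1.08%), and in other cells 87 passed (1.02%), 32 higher (0.375%) and 55 lower (0.644%). The change differed between the classes for 8 genes (0.0937%), with 5 more positive (0.0585%) and 3 more negative (0.0351%) in arterial cells. The classes are different cells of the same 2 libraries. They had 38 genes in common, 18.0% of the arterial and 43.7% of the other list, and 0 of these with opposite signs. Icam1 rose by 1.53 in arterial cells (adjusted p = 0.00149) and by 1.11 in other cells (adjusted p = 0.0255). Sele rose by 3.36 and 2.98, B2m by 0.83 and 0.62 and H2-K1 by 0.86 and 0.82.

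Of the 15 MHC class I genes, 8 rose in arterial and 5 in other cells and 0 fell in either. The difference between the classes passed for 0 of the 15 with edgeR, 2 having an unadjusted p under 0.05, and for 0 with DESeq2. In the Notch list 2 of 17 fell in arterial cells (Hey1 and Jag2) and 1 in other cells (Notch4), at medians of -0.26 and -0.29. Vcam1 stood at 66.7 and 36.5 CPM in high and 11.8 and 8.14 in low arterial cells (log2 change 2.35, adjusted p = 0.000792), and at 14.2 and 6.96 against 4.76 and 2.94 in other cells (1.40, adjusted p = 0.423). The difference between these 2 changes did not pass (adjusted p = 0.885).

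**Figure D5:**
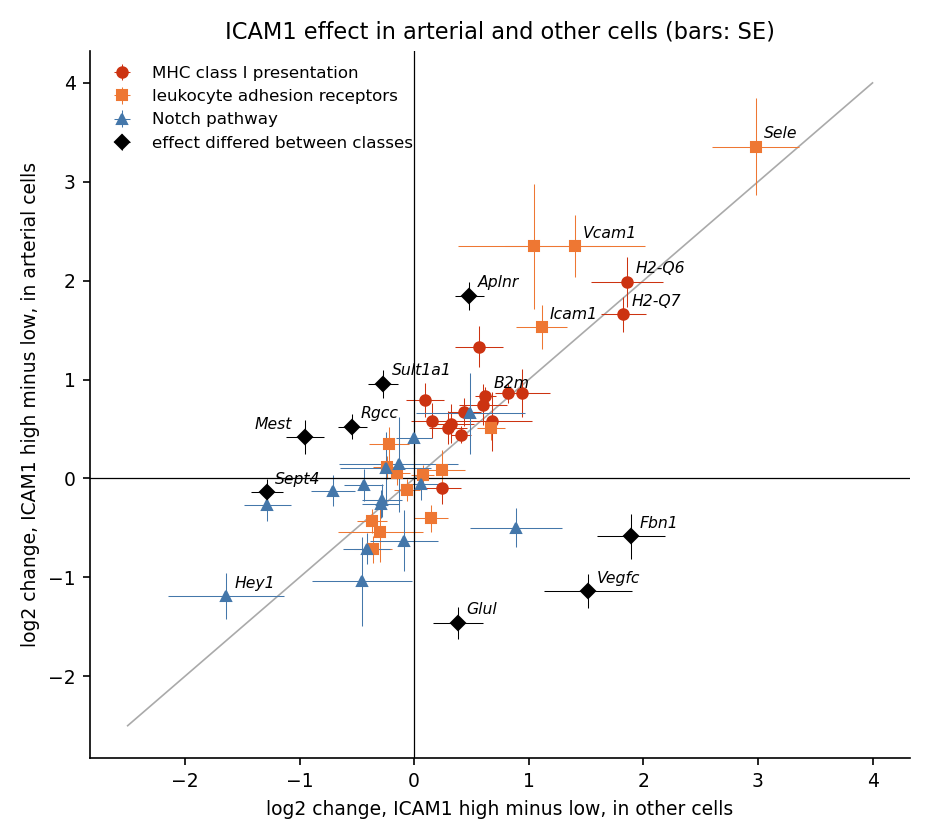
Log2 change between ICAM1 high and low cells in other cells (horizontal axis) and in arterial cells (vertical axis), with SE bars, for 15 MHC class I genes, 15 leukocyte adhesion receptors, 15 of 17 Notch genes (those with an SE under 0.8 in both classes) and the 8 genes whose change differed between the classes, with the line of equal change. Sele, Icam1, B2m and the MHC class I genes H2-Q6 and H2-Q7 lay above 0 in both classes, and Glul, Vegfc and Fbn1 lay below 0 in arterial and above 0 in other cells.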

How the data were processed

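The authors deposited raw UMI counts for each gene and barcode. The submitters' processing notes name Cell Ranger and the mm10 build. Those notes also name Seurat 3.0.2 without a role, and the matrix headers name software 3.0.2. Tag matrices hold deposited counts for 7 antibodies, and the sources used here do not say whether these are UMIs or reads. Deposited totals were 15989249 and 26675353 UMIs, and 1500 and 2250 barcodes passed the gene and mitochondrial filters before the tag and marker rules. mRNA libraries shared 3 barcodes, and no correction for free RNA was made. Scrublet called 1 of the compared and middle cells a doublet.

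UMI sums per library and tag group (high, middle, low) were tested with edgeR 4.0.16 in R 4.3.3 (TMM, filterByExpr, library block since a library's groups share animals, residual df 2). Deviations correlated at 0.236 (high and low), 0.303 and 0.346. On simulated counts of 10046 genes for this comparison 93.9% of 4-fold and 79.6% of 2-fold changes were recovered, with 5.56% false calls. The simulation gave all genes the same dispersion and an assumed library effect. These rates need not hold for genes whose UMIs come from few cells. DESeq2 1.42.0 was an alternative, with other scalings, filters, thresholds and cell sets.

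The groups, the gene lists and the naming rule were chosen with earlier results of these data known. Named genes were those of tagged proteins, the 12 largest rises and 12 largest falls at an average log2 CPM of 5 or more, and up to 4 genes of each of 34 lists by adjusted p, 96 in all, of which 94 passed. Other list members are named in counts or chosen after their values were seen.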

Additional observations from a re-analysis of the deposited data

Results flagged for a closer look

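For 8 genes (0.0937% of 8541) the change between ICAM1-high and ICAM1-low cells differed between arterial and other cells by edgeR's test of the difference. The log2 difference, arterial minus other, was -1.84 for Glul, 1.37 for Aplnr, -2.48 for Fbn1, 1.23 for Sult1a1 and -2.66 for Vegfc (adjusted p = 0.0268 each), 1.06 for Rgcc and 1.15 for Sept4 (0.0494 each) and 1.37 for Mest (0.0496). Glul, glutamine synthetase, stood at 153 and 148 CPM in high and 429 and 392 in low arterial cells, against 59.8 and 93.0 and 58.7 and 61.7 in other cells. Aplnr stood at 436 and 268 in high and 107 and 85.9 CPM in low arterial cells, against 771 and 452 and 536 and 333 in other cells, so that its arterial values in low cells were the lowest of the 4. Vegfc, a growth factor of lymphatic vessels, stood at 105 and 41.8 against 201 and 107 CPM in arterial cells, and at 32.8 and 16.5 against 9.52 and 7.34 in other cells. The classes were cut from unthinned UMIs of arterial genes, although high cells were deeper than low cells. Without the library block 0 genes passed, where 451 had an unadjusted p under 0.05, against 13 with DESeq2.

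Tag counts that matched no antibody, which no comparison used, were 5.63 and 6.28 times as high in high as in low cells (29.3 against 5.21 and 49.8 against 7.93 counts per cell on average), well above the ratios of the isotype tags. Across cells they followed the ICAM1 tag with a Spearman's rho of 0.808 over 747 and 0.880 over 991 cells. The sources used here do not say what these counts are.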

How the results depend on the processing

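The 720 genes between ICAM1 groups became 198 with no replicate block, 269 with DESeq2, 1097 with no low-count filter, 373 among cells with low isotype tags, 249 with cells thinned to 3000 UMIs, 232 without arterial cells, 407 without cells with a Sele UMI, 191 with at least 1000 genes and at most 5% mitochondrial UMIs, and 233 with cells of 6000 to 12000 UMIs, the last an alternative chosen after seeing the data, as was leaving out cells with a CD45 tag or UMIs of other types (731). The other alternatives gave 562 to 1039. With no replicate block, with DESeq2 and with no low-count filter, the 8 genes whose effect differed between classes became 0, 13 and 127, the 87 in other cells 5, 50 and 325, the 211 in arterial cells 42, 55 and 429, and the 186 between isotype groups 0, 46 and 368. Icam1 was 1.31 with no replicate block (adjusted p = 0.514) and past the threshold in the 15 other alternatives with a test, and without 1 of the libraries it was 1.07 to 2.01, a value with no test. No count of genes was recomputed with a library left out, since 1 library leaves no replicate. Over the 95 other named genes and their alternatives, 1332 values counted as unchanged. For values with a test this means the same side of the threshold, and the same direction where the gene passed. The 1332 also hold values with a library left out, which have no test. Those counted as unchanged when near the main value, judged by the difference between the libraries. Another 321 values lost the threshold, 7 gained it and 14 values with no test moved. Signs changed for 19, 12 of them without arterial cells: Amd1 0.40, Stmn2 1.003, Ptprr 1.37, Nr4a2 0.12, Gadd45g 0.20, Nr4a1 0.25, Klf2 0.10, Klf4 0.18, Entpd1 0.63, Vegfc 1.52, Jag1 0.86 and Kcne3 -0.042. Signs also changed for Ccl5 (-1.17) and Tnip1 (-0.043) by the ratio to the other tags, Gkn3 (-0.84) and Eln (-0.022) at tag thresholds of 300 and 40, Jag1 (0.055) and Notch3 (0.086) under the stricter cell filter and Mt1 (1.44) without cells with a CD45 tag or UMIs of other types. The cause was not tested. Low levels, such as those of Vcam1, Nebl and Pi16, rest on few UMIs.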

Other observations

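Some genes outside the lists changed between the groups, and these were chosen after their values were seen. Cdkn1a, the cell cycle inhibitor p21 and a known target of p53, stood at 531 and 385 CPM in high, 352 and 281 in middle and 224 and 175 in low cells (log2 change 1.19 ± 0.08, adjusted p = 1.22e-05, edgeR), and Phlda3, another p53 target, at 349 and 234, 226.2 and 159, and 170 and 97.2 CPM (1.14 ± 0.10, adjusted p = 3.49e-05). Both rose in arterial cells (1.29 and 1.06) and in other cells (0.86 and 1.16). Mdm2, the ligase that limits p53, rose by 0.80 ± 0.14 over all cells (adjusted p = 0.00366) and did not pass within either class. Ccnd1, cyclin D1, also rose (0.93 ± 0.08), and Cdkn1c, the inhibitor p57, fell (-1.63 ± 0.12), but without arterial cells they stood at 0.30 and -0.61 and neither passed. On the list of dividing markers, Mki67 and Top2a aside, all 4 genes were higher in both libraries. Of these Cenpa passed (0.75 ± 0.18, adjusted p = 0.0283, edgeR) and 3 did not. Their summed level was 91.5 and 100 CPM of total UMIs in high and 71.1 and 50.7 in low cells. Cdkn1a and Phlda3 changed by 0.29 and 0.04 between the isotype groups and did not pass there. Cdkn1a passed in all alternatives run. Phlda3 did not pass without the library block (adjusted p = 0.114), and Mdm2 did not pass with DESeq2 (0.0767), among cells with low isotype tags (0.353), without arterial cells (0.122), with the stricter cell filter (0.228) or with cells of 6000 to 12000 UMIs (0.0777).

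Odc1, the first enzyme of polyamine synthesis, rose as described above. Azin1, whose product keeps ornithine decarboxylase from being degraded, went from 207 and 163 CPM in low to 63.5 and 76.6 in high cells (-1.37 ± 0.14, adjusted p = 8.61e-05), and Amd1, encoding S-adenosylmethionine decarboxylase of the same pathway, from 110 and 66.6 to 26.6 and 15.2 (-2.10 ± 0.18). In other than arterial cells, in the comparison by class, Odc1 (0.73), Azin1 (-0.28) and Amd1 (0.44) did not pass. In the fit without arterial cells, which also held the middle cells, Odc1 passed (0.78, adjusted p = 0.0018, edgeR). Azin1 (-0.31) and Amd1 (0.40) did not pass there. Azin1 also fell between the isotype groups (-0.82). Plvap, the protein of endothelial diaphragms in capillaries and venules, stood at 1322 and 1326 CPM in high and 581 and 727 in low cells (1.02 ± 0.08), and passed in both classes. Lbp, which carries bacterial lipopolysaccharide, rose from 5.93 and 5.34 to 73.8 and 24.3 CPM (3.09 ± 0.31). It did not pass without the library block (adjusted p = 0.0671) or within arterial cells (1.76, adjusted p = 0.0938).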
